A study of Homo sapiens with 8 samples.

Results

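The genes of mitosis and the spindle checkpoint were followed in SK-N-BE(2), a human neuroblastoma cell line, after knockdown of METTL14, the partner of METTL3 in the enzyme complex that places N6-methyladenosine (m6A) on messenger RNA. The group held 45 genes chosen by name for their known roles in cell division, of 56303 genes in the table. All 45 were found, and all 45 had enough reads to be tested in every comparison. One arm received a control hairpin (sh-NC) and the other a hairpin that silences METTL14 (shMETTL14), both delivered in a lentiviral vector according to the study's methods, and no other treatment is given in the labels. There were 2 cultures per arm. Each culture gave 1 input library of fragmented polyadenylated RNA and 1 library of the fragments pulled down with an antibody against m6A (IP), 8 libraries in all. The labels number the shMETTL14 cultures 1 and 2 without saying whether they carry the same hairpin, and they do not say that the cultures were grown separately, so the p-values measure the spread between these samples only.

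A dividing cell enters mitosis when CDK1 bound to a B-type cyclin becomes active, and it leaves when the anaphase-promoting complex (APC/C), a ubiquitin ligase, has those cyclins and securin destroyed. In between, the chromosomes are condensed, their kinetochores attach to spindle microtubules, and the spindle checkpoint holds CDC20, the activator of the APC/C, in check until all of them are attached. Most of these genes are transcribed late in the cell cycle from promoters with a CHR element (cell cycle genes homology region), which the DREAM complex represses in resting cells and the B-MYB and FOXM1 complex activates in G2 phase. m6A is read by proteins that can speed the decay of an mRNA or change its translation.

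The libraries held between 32027379 and 47205265 counts, of which the 45 genes took 0.695% to 0.763% in the inputs and 0.947% to 1.03% in the IPs. METTL14 itself stood at 49.5 and 48.8 CPM (counts relative to the library's total, adjusted with TMM factors) in the sh-NC inputs and at 13.7 and 14.6 in the shMETTL14 inputs. It fell by 1.79 on the log2 scale (SE 0.07, adjusted p = 1.28e-15 in edgeR's quasi-likelihood test), so the labels and the target go together. The neuroblastoma markers MYCN, HAND2, PHOX2A and GATA3 were present in every input, at no less than 37.2 RPKM (CPM per kilobase of merged exons), while DBH was low, with at most 1.61 RPKM. The 7 neuroblastoma markers reported here summed to between 2040 and 2130 RPKM in the sh-NC inputs and between 2100 and 2130 in the shMETTL14 inputs. Most of each sum was MYCN, at 1620 to 1710 RPKM over the 4 inputs. Of the 7, 5 rose and none fell, with a median log2 change of 0.28 and the largest rise, 1.03, in TH, the tyrosine hydroxylase of catecholamine synthesis. The 6 fibroblast markers summed to 59.9 and 60.1 RPKM in the sh-NC inputs against 63.2 and 63.3 RPKM in the shMETTL14 inputs, with 3 higher and 2 lower. The immune markers summed to 7.37 and 9.0 against 5.74 and 6.47 RPKM, nearly all of it CD68. The epithelial markers summed to at most 2.36 RPKM and the endothelial ones to at most 0.269, and in at least 1 input CD3E, KRT5, CDH1 and PECAM1 had no read. The part of these shifts in the results for the mitotic genes was not tested.

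Levels of the 45 genes spanned a wide range before the knockdown. Per exon length, MKI67, whose protein is the Ki-67 antigen of dividing cells, was the highest at 162 RPKM in the sh-NC inputs, and CDC25C, a phosphatase that activates CDK1, was the lowest at 3.65 RPKM, with a median of 18.3 RPKM over the group. Next after MKI67 came NUSAP1 (88.6 RPKM), a protein that bundles spindle microtubules, then TPX2 (70.9 RPKM), the spindle activator of Aurora A, and CENPF (69.0 RPKM), a large kinetochore protein. TPX2 and CENPF are neighbours in that order, and the difference between them was not tested.

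Promoter windows from RefSeq on GRCh38.p14, which reach from 250 bases before the start of a gene to 50 bases after it, were found for 38 of the 45 genes. The CHR, searched as TTTGAA or TTCGAA on both strands, was in 27 of the 38 windows (71.1%) and in 16.4% of all 35116 windows in the table. The CCAAT box, searched as CCAAT on both strands, was likewise in 27 of the 38 (71.1%), against 34.6% of all windows. Both were present together in 20 of the 38 (52.6%), against 6.38% of all. E2F sites, searched as TTTCGCGC or TTTGGCGC on both strands, were in 2 of the 38 (5.26%), those of CDK1 and NUSAP1, against 1.15% of all windows. A match is a run of letters and does not show that a factor binds. Of the genes with a CHR 11 of 27 were lower in the shMETTL14 inputs and of those without 3 of 11, where 12.3% of all 22245 genes tested were lower. Their median log2 input changes were -0.12 and -0.09. With a CCAAT box 9 of 27 were lower and without it 5 of 11. With both elements 7 of 20 were lower and among the rest 7 of 18, with medians of -0.09 and -0.11. With an E2F site 2 of 2 were lower and without it 12 of 36. The difference between the genes with and without a match was not tested. The windows below are from genes whose input RNA fell (TOP2A, CDK1 and MKI67), rose (PRC1) or did not pass the test (PLK1 and CCNB2), to set the element side by side in all 3 kinds. Each is 30 bases long, runs 5′ to 3′ along the gene's strand, ends before the RefSeq start and has a CHR match in capitals. TOP2A and MKI67 each have a further match that is not shown, 151 (TOP2A) and 47 (MKI67) bases before the start.
TOP2A: cgagtggtgcctTTTGAAgcctctctagtc
CDK1: gagtataataaaTTTGAActgtgccaatgc
MKI67: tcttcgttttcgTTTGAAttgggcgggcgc
PRC1: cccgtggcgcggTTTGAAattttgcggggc
PLK1: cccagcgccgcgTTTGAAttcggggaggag
CCNB2: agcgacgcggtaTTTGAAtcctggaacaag
They lie at chr17:40418073-40418102 (minus strand, the first base of the CHR 194 bases before the start), chr10:60778158-60778187 (plus strand, 161 bases), chr10:128126435-128126464 (minus strand, 29 bases), chr15:90994538-90994567 (minus strand, 20 bases), chr16:23678848-23678877 (plus strand, 29 bases) and chr15:59105105-59105134 (plus strand, 29 bases).

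The first comparison asked whether the RNA of these genes changed when METTL14 was knocked down. In the 4 input libraries 17 of the 45 genes fell, 1 rose and 27 did not pass the threshold of 0.05 on the adjusted p. Over all 22245 genes tested, 12.3% were lower and 11.7% were higher. The share of lower genes in the group, 37.8%, was thus above the background and the share of higher genes, 2.22%, below it. This background was not matched for read depth, and each of the 45 genes had a mean of at least 11.1 CPM in the sh-NC inputs. With more reads a small change passes the threshold more easily, and the part of read depth in these shares was not tested. The falls were small, with a median log2 change over the 45 genes of -0.09, against 0.00 over all genes tested. The median was -0.05 without sh-NC culture 1 and -0.13 without sh-NC culture 2. In 20 genes the change was under 0.1 in either direction, and in 2 the fall was over 0.4. Both shMETTL14 inputs lay below both sh-NC inputs for 23 genes and above them for 5, with overlap in the remaining 17; over all genes tested 29.9% lay below and 28.5% above. The 17 genes that fell were all among the 23. In bulk RNA, fewer cells in the phases that express these genes and less RNA per such cell cannot be told apart. The count of lower genes depended on the libraries used: it was 10 without shMETTL14 culture 1 and 7 without shMETTL14 culture 2, where over all genes 6.57% and 3.99% were lower, and 9 when every gene with at least 1 read was kept, where 2.87% of all genes were lower. TOP2A, MAD2L1, CDK1, CDC25B and ANLN were lower in all 11 alternatives that kept every one of the 45 genes in the fit, and the other genes called here lost the threshold in at least 1 of them.

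**Figure D1:**
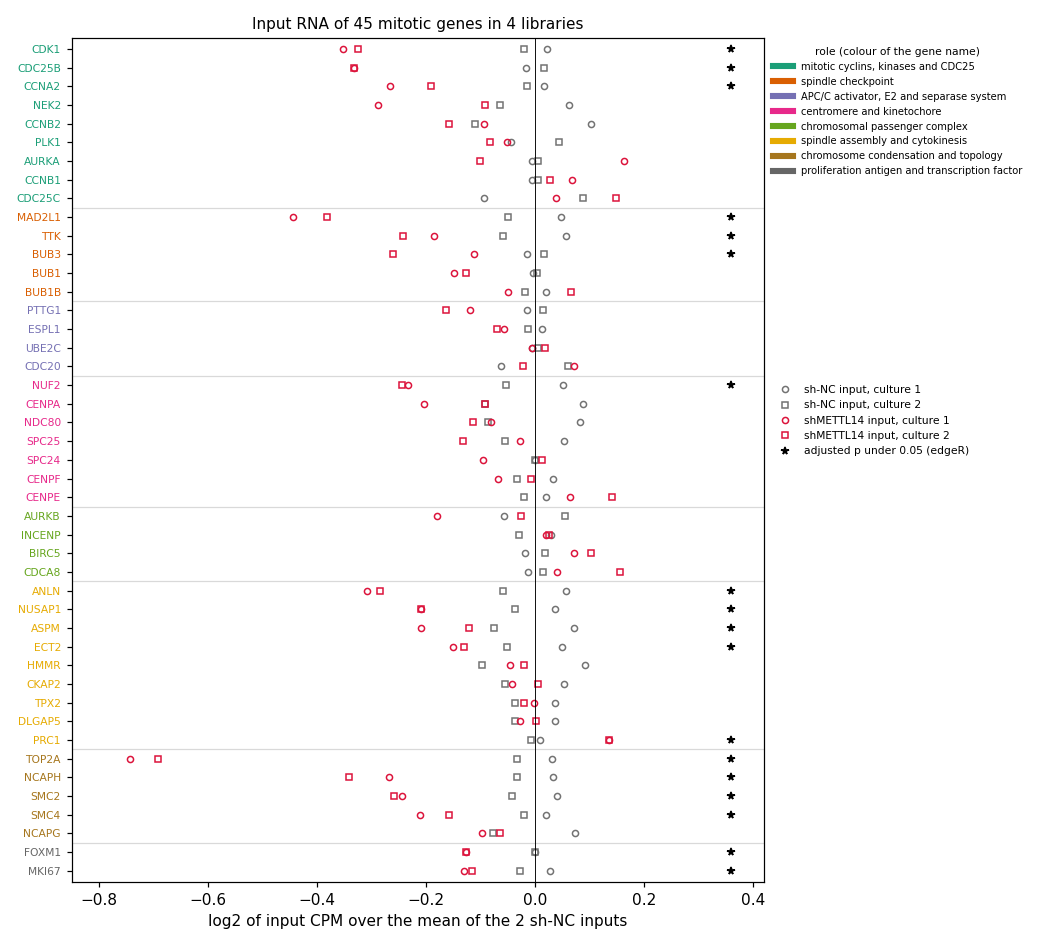
Input RNA of the 45 genes in the 4 input libraries, each point the log2 of the CPM of 1 library over the mean of the 2 sh-NC inputs, with rows grouped by role; a star marks an adjusted p under 0.05 in edgeR. TOP2A lies farthest to the left, with both shMETTL14 cultures far below both sh-NC cultures, while PRC1 is the starred gene whose shMETTL14 points lie to the right.

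Of the genes of chromosome condensation and topology, 4 of 5 fell. TOP2A encodes topoisomerase II alpha, which untangles sister DNA molecules before they separate, and lies at chr17:40388516-40417950 (GRCh38). It stood at 368 and 352 CPM in the sh-NC inputs and at 215 and 223 CPM in the shMETTL14 inputs. The arms were thus far apart, and TOP2A fell by 38.9%, or by 0.71 on the log2 scale (SE 0.04, adjusted p = 2.41e-13, edgeR), the largest fall of the 45 genes. The condensin subunits NCAPH, SMC2 and SMC4, which compact the chromosomes, changed by -0.30, -0.25 and -0.18 on the log2 scale (adjusted p = 3.93e-05, 2.22e-04 and 3.93e-04, edgeR). NCAPG, another subunit of condensin I, had a change of -0.07 (adjusted p = 0.305, edgeR), which became -0.15 without sh-NC culture 2 (adjusted p = 0.0264). SMC4 shares 2168 exonic bases and NCAPG 1631 with other genes, and without a stated strand setting in the counting the reads of such neighbours cannot be told apart.

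Among the mitotic cyclins, kinases and CDC25 phosphatases, 3 of 9 fell and none rose. CDK1, the kinase that drives entry into mitosis, stood at 66.2 and 64.3 CPM in the sh-NC inputs and at 51.1 and 52.1 CPM in the shMETTL14 inputs. It fell by 0.33 on the log2 scale (SE 0.05, adjusted p = 1.36e-05, edgeR). CDC25B, a phosphatase that removes the inhibitory phosphates from CDK1, stood at 132 and 135 CPM against 106 CPM in both shMETTL14 inputs, a fall by 0.33 (SE 0.04, adjusted p = 8.93e-07, edgeR). The arms of both genes were well separated. CCNA2 (cyclin A2, active from S phase to early mitosis) fell by 0.22 (adjusted p = 4.81e-04, edgeR). CCNB1, the cyclin B1 partner of CDK1, was on the other side: its 87.3 and 88.0 CPM in the sh-NC inputs were followed by 91.9 and 89.3 CPM in the shMETTL14 inputs, a log2 change of 0.06 (SE 0.04, adjusted p = 0.407, edgeR). The fall of CDK1 was thus not matched by a fall in CCNB1, although the difference between the changes of these genes was not tested. The log2 changes of the remaining members were -0.12 for CCNB2 (cyclin B2), -0.06 for PLK1 (Polo-like kinase 1), 0.04 for AURKA (Aurora A, a spindle pole kinase), -0.18 for NEK2 (a centrosome kinase) and 0.10 for CDC25C, none past the threshold. NEK2 was close to it (adjusted p = 0.0589, edgeR), and without sh-NC culture 2 both NEK2 (-0.25, adjusted p = 0.0117) and CCNB2 (-0.22, adjusted p = 0.00141) passed it.

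Of the 5 genes of the spindle checkpoint 3 fell. MAD2L1, whose protein binds and holds CDC20 at unattached kinetochores, had the second largest fall of the 45 genes, from 66.5 and 62.2 CPM in the sh-NC inputs to 47.3 and 49.4 CPM in the shMETTL14 inputs. The log2 change was -0.41 (SE 0.05, adjusted p = 1.95e-06, edgeR). TTK (the kinase MPS1, which starts the checkpoint signal) and BUB3 (which brings BUB1 and BUB1B to kinetochores) had changes of -0.21 and -0.18, with adjusted p = 0.0434 and 0.0196 in edgeR, and neither passed in DESeq2 (adjusted p = 0.133 and 0.0569). Without shMETTL14 culture 2 the change of BUB3 was -0.11 (adjusted p = 0.339). The kinase BUB1 had a change of -0.13 (adjusted p = 0.063) and its relative BUB1B of 0.02 (adjusted p = 0.837, edgeR).

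The targets of that checkpoint and the 7 kinetochore genes chosen here moved little. This did not hold for the separate list of other kinetochore and centromere genes described below. There 17 of 32 were lower and none was higher, with a median log2 change of -0.19. CDC20, the APC/C activator, UBE2C, a ubiquitin-conjugating enzyme of the APC/C, PTTG1, the securin that keeps separase inactive, and ESPL1, the separase, had log2 changes of 0.03, 0.01, -0.14 and -0.06, and none of the 4 passed the threshold. CDC20 stood at 24.9 and 27.1 CPM in the sh-NC inputs and at 27.3 and 25.6 CPM in the shMETTL14 inputs, so that the arms overlapped. In the centromere and kinetochore group, 1 of 7 fell. This was NUF2 of the NDC80 complex, which grips the microtubule, with a log2 change of -0.23 (SE 0.05, adjusted p = 9.66e-04, edgeR). Its partners NDC80, SPC24 and SPC25 had changes of -0.09, -0.04 and -0.07, CENPA (the centromeric histone H3 variant) of -0.14 (-0.23 without sh-NC culture 2, adjusted p = 0.0363), and the large kinetochore proteins CENPE and CENPF of 0.11 and -0.03. In the chromosomal passenger complex, which corrects faulty attachments, none of 4 passed, with -0.09 for its kinase AURKB, 0.03 for INCENP, 0.09 for BIRC5 (survivin) and 0.11 for CDCA8 (borealin).

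The genes of spindle assembly and cytokinesis moved both ways, with 4 of 9 lower and 1 higher. ANLN, the anillin scaffold of the contractile ring, stood at 157 and 145 CPM in the sh-NC inputs and at 122 and 124 CPM in the shMETTL14 inputs, a fall by 0.29 on the log2 scale (SE 0.04, adjusted p = 1.25e-05, edgeR). NUSAP1, ASPM (a spindle pole protein) and ECT2 (which activates RhoA at the cleavage furrow) had changes of -0.20, -0.16 and -0.13 with adjusted p = 1.16e-04, 0.0115 and 0.0405 in edgeR. Without sh-NC culture 1 ASPM was at -0.08 (adjusted p = 0.252) and ECT2 at -0.08 (adjusted p = 0.307), and ECT2 did not pass in DESeq2 (adjusted p = 0.0977). PRC1, which bundles the antiparallel microtubules of the spindle midzone, was the gene that rose. It lies at chr15:90966038-90995629 (GRCh38), and its 347 and 343 CPM in the sh-NC inputs were followed by 379 CPM in both shMETTL14 inputs. The rise was 10.3%, or 0.14 on the log2 scale (SE 0.03, adjusted p = 0.00187, edgeR), and it lost the threshold without shMETTL14 culture 1 (adjusted p = 0.0554) or culture 2 (adjusted p = 0.0927). PRC1 shares 406 exonic bases with its antisense gene, PRC1-AS1, whose counts over the 8 libraries were 7.58% of those of PRC1. TPX2, HMMR, CKAP2 and DLGAP5, which act on spindle microtubules, had changes between -0.03 and -0.01.

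Both genes of the last group fell slightly. MKI67 stood at 2110 and 2030 CPM in the sh-NC inputs and at 1890 and 1910 CPM in the shMETTL14 inputs, a log2 change of -0.12 (SE 0.03, adjusted p = 0.00281, edgeR). FOXM1, the transcription factor that drives late cell cycle genes, stood at 130 CPM in both sh-NC inputs and 119 CPM in both shMETTL14 inputs, a log2 change of -0.12 (SE 0.04, adjusted p = 0.0237, edgeR). In each gene the arms did not overlap, but the call was lost without shMETTL14 culture 1 (adjusted p = 0.0787 for MKI67 and 0.154 for FOXM1) and without culture 2 (adjusted p = 0.0976 and 0.183). For FOXM1 it was also lost without sh-NC culture 1 (adjusted p = 0.0516) or culture 2 (adjusted p = 0.052). FOXM1 shares 781 exonic bases with ITFG2.

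Other genes of chromosome segregation and of the preceding phase were read from lists, shown in the plot of shares by list. Genes of DNA replication and nucleotide supply at the G1 to S boundary were lower most often, in 18 of 25, with 2 higher and a median log2 change of -0.25. RRM2, the small subunit of ribonucleotide reductase, fell the most in that list, from 244 CPM in both sh-NC inputs to 150 and 153 CPM (log2 change -0.68, SE 0.04, adjusted p = 6.89e-13, edgeR). CCNE1, cyclin E1, which starts S phase with CDK2, rose the most, from 14.3 and 14.1 CPM to 23.5 and 27.5 CPM (log2 change 0.85, SE 0.08, adjusted p = 3.66e-08, edgeR). Cyclin E1 thus moved against most of its list.

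Of the other kinetochore and centromere genes, 17 of 32 were lower and none was higher, with a median of -0.19. The largest fitted fall there, in OIP5, which helps to load CENPA, rests on few reads: 2.83 and 3.74 CPM against 2.22 and 1.34 CPM (log2 change -0.88, SE 0.23, adjusted p = 0.006, edgeR), and 470 of its exonic bases lie in another gene. With a culture left out it ran from -1.29 to -0.56, losing the threshold without shMETTL14 culture 2 (adjusted p = 0.242) or sh-NC culture 2 (adjusted p = 0.0679). ZWILCH, of the complex that brings dynein to kinetochores, was close to it at -0.87 (SE 0.08, adjusted p = 1.55e-08, edgeR). Of the genes of cohesin, the ring that holds sister chromatids together, 7 of 15 were lower and none was higher. Among them ESCO1, which acetylates cohesin, had the largest fall (log2 change -0.47, SE 0.10, adjusted p = 6.92e-04, edgeR). Of the remaining condensin subunits 1 of 4, NCAPD2, was lower (-0.18, SE 0.03, adjusted p = 2.14e-04, edgeR). Of the 17 centrosome genes 7 were lower, led by TUBGCP3 of the gamma-tubulin complex (-0.37, SE 0.05), and 1 was higher, the pericentrin gene PCNT (0.11, SE 0.04). PCNT ran from 0.07 (without shMETTL14 culture 2) to 0.15 and lost the threshold whichever culture was left out (adjusted p from 0.0504 to 0.379). Of the 16 regulators of mitotic entry and exit 6 were lower and 1 higher. Among those past the threshold the CDK-binding subunit CKS1B fell most (-0.39, SE 0.07), and the phosphatase inhibitor ENSA was the gene that rose (0.21, SE 0.04).

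The list of DREAM and B-MYB genes also held RB1 and E2F genes outside these complexes, such as E2F8. Of its 18 genes 8 were lower and 1 higher, with the repressor E2F8 at -0.56 (SE 0.11) and the E2F partner TFDP2 at 0.24 (SE 0.05). The subunits and regulators of the APC/C differed least from the background, with 3 of 18 lower (16.7%) and 1 higher (5.56%), led by the subunits ANAPC16 (-0.24, SE 0.06) and CDC27 (0.22, SE 0.05). CDC27 has near-identical copies elsewhere in the genome, so its value is uncertain. Leaving out either shMETTL14 culture gave fewer lower genes in each list but the other condensin subunits, and fewer over all genes tested. The median log2 change of the DNA replication list was -0.25 with all cultures, and from -0.28 to -0.24 with 1 left out. In the same way it was -0.19 (-0.23 to -0.18) for the other kinetochore genes and -0.15 (-0.16 to -0.08) for cohesin. For the centrosome it was -0.19 (-0.19 to -0.13) and for mitotic entry and exit -0.08 (-0.11 to -0.08). For the list with DREAM and B-MYB it was -0.14 (-0.15 to -0.13) and for the APC/C -0.04 (-0.04 to -0.03). The smallest falls of cohesin and the centrosome were those without sh-NC culture 1.

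**Figure D2:**
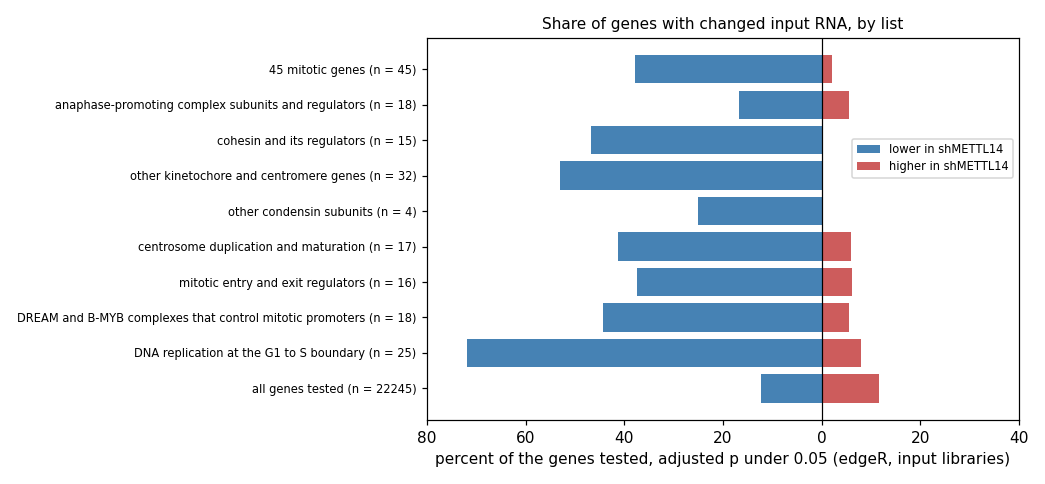
Percent of the genes of each list past an adjusted p of 0.05 in the input comparison (edgeR), with lower genes to the left of 0 and higher genes to the right, beside all genes tested. The DNA replication list has the longest bar to the left, 72.0%, and the 45 mitotic genes reach 37.8%, against 12.3% over all 22245 genes.

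The second comparison asked how much of each mRNA was pulled down with the m6A antibody. A ratio of IP to input above 1 means that the IP held relatively more reads of a gene than the input did. In sh-NC 24 of the 45 genes had a higher and 18 a lower share in the IP at an adjusted p under 0.05. Over all 22953 genes tested 29.1% were higher and 29.8% lower. This background was not matched for read depth either. In shMETTL14 23 were higher and 17 lower, where 28.9% and 29.1% of all genes were. No gene was higher in one arm and lower in the other, and 23 were higher and 17 lower in both arms. The mean ratio ran from 0.441 (CDC20) to 2.11 (CENPE) in sh-NC and from 0.456 to 2.16 for the same genes in shMETTL14. The median log2 ratio of the 45 genes was 0.26 in sh-NC, against -0.01 over all genes, and 0.21 in shMETTL14. It came down to 0.03 and 0.09 when the 14 genes whose exons overlap another gene were left out. Leaving out the sh-NC cultures gave 0.33 and 0.16, and with library size as the only scaling the median was 0.14 in sh-NC, where the median of all genes was -0.14.

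**Figure D3:**
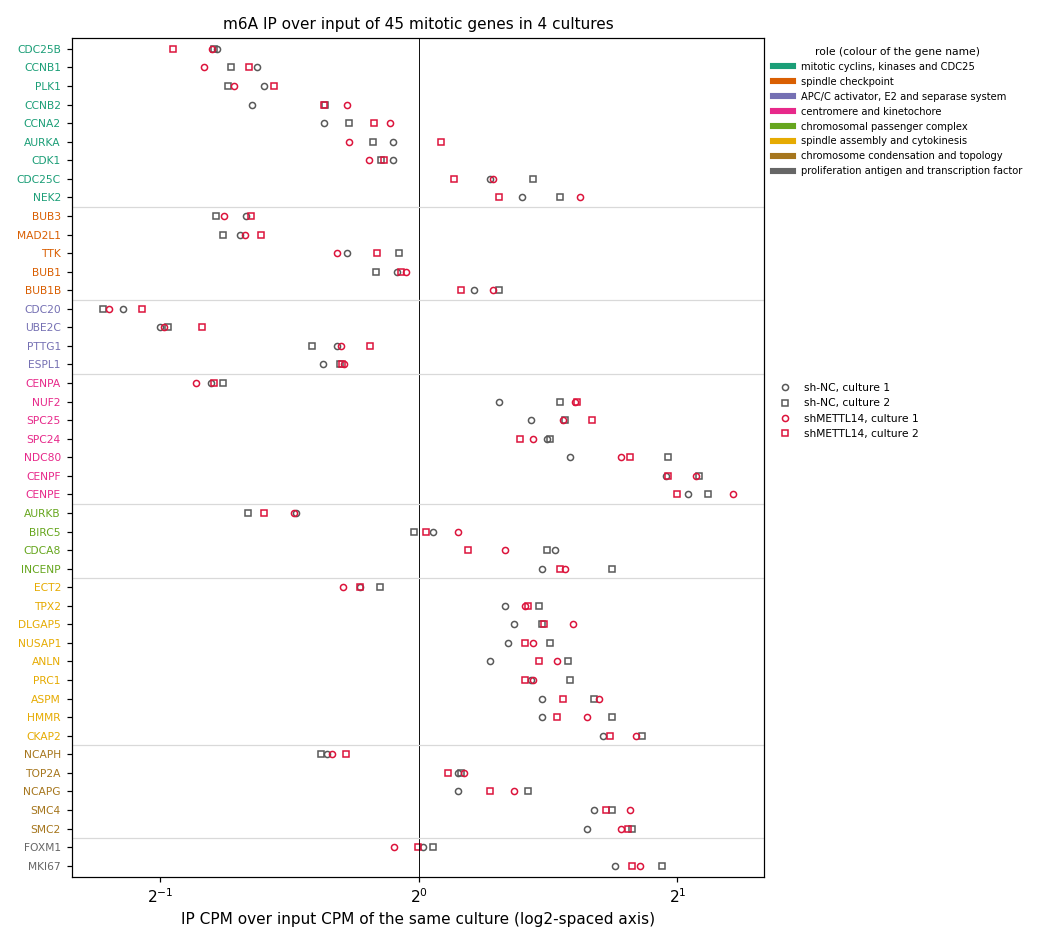
Ratio of IP CPM to input CPM of each of the 4 cultures for the 45 genes, on a log2-spaced axis, with rows grouped by role. The genes spread from CDC20 at about 0.44 to CENPE at about 2.1, while the 4 cultures of a gene lie close together and the arms intermingle.

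The ratios are taken here by role. Most kinetochore and spindle genes of the group lay high. In sh-NC 6 of 7 kinetochore genes and 8 of 9 spindle and cytokinesis genes had a higher share in the IP. So did 4 of 5 genes of condensation and topology, while the condensin subunit NCAPH had a lower share (log2 ratio -0.36). The 4 other condensin subunits, read from a list, were all lower in the IP, with a median log2 ratio of -0.48 in sh-NC. The list of 32 other kinetochore and centromere genes was mixed, with 19 higher and 8 lower in sh-NC and a median log2 ratio of 0.21. Of the 17 centrosome genes 11 were higher and 3 lower. Over all genes tested 29.1% were higher and 29.8% lower. CENPE, a kinesin that carries chromosomes along microtubules, had the highest ratios, 2.06 and 2.17 in sh-NC, then 2.32 and 2.00 after the knockdown. The log2 ratio in sh-NC was 1.08 (SE 0.04, adjusted p = 9.91e-27, edgeR). CENPF followed with 1.94 and 2.12 against 2.10 and 1.95, MKI67 with 1.69 and 1.92 against 1.81 and 1.77, and CKAP2, a microtubule-binding protein of the spindle, with 1.64 and 1.82 against 1.79 and 1.67. Their log2 ratios in sh-NC were 1.02 (SE 0.04), 0.85 (SE 0.04) and 0.78 (SE 0.05), and in each the cultures of the arms overlapped.

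Other roles lay mostly low. All 4 genes of the APC/C activator, E2 and separase group, 4 of 5 checkpoint genes and 6 of 9 cyclins, kinases and phosphatases had a lower share in the IP in sh-NC. In the last of these roles NEK2 and CDC25C had a higher share (log2 ratios 0.47 and 0.35), and AURKA did not pass the threshold. With library size as the only scaling CDC25C lost it (0.22, adjusted p = 0.0659, edgeR). Of the checkpoint genes, MAD2L1 and BUB3 lay far below 1, while BUB1 (-0.12) and TTK (-0.18) were near the threshold and lost it in DESeq2 (adjusted p = 0.0999 and 0.111); without sh-NC culture 1 TTK was at -0.06 (adjusted p = 0.677) and without sh-NC culture 2 BUB1 at -0.08 (adjusted p = 0.375). In shMETTL14 3 of the 5 were lower. CDC20 had ratios of 0.452 and 0.429 in sh-NC against 0.436 and 0.476 in shMETTL14, with a log2 ratio in sh-NC of -1.19 (SE 0.08, adjusted p = 8.93e-18, edgeR). UBE2C had 0.500 and 0.511 against 0.505 and 0.560, CDC25B 0.582 and 0.578 against 0.574 and 0.517, and CENPA 0.573 and 0.592 against 0.551 and 0.577. Their log2 ratios in sh-NC were -0.99 (SE 0.07), -0.79 (SE 0.05) and -0.78 (SE 0.08). Among the 7 kinetochore genes of the group, CENPA lay low and the other 6 high.

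CCNB1, CDK1, TOP2A and FOXM1 lay between these ends. CCNB1 had ratios of 0.648 and 0.604 in sh-NC against 0.562 and 0.634 in shMETTL14. CDK1 lay just under 1, with 0.932 and 0.903 against 0.876 and 0.911, and its log2 ratio of -0.12 in sh-NC (SE 0.05, adjusted p = 0.0403, edgeR) lost the threshold without any 1 of the 4 cultures (adjusted p from 0.0766 to 0.258) and in DESeq2 (adjusted p = 0.105). TOP2A lay just above 1, with 1.11 and 1.12 against 1.13 and 1.08 (log2 ratio in sh-NC 0.16, SE 0.04, adjusted p = 2.95e-04, edgeR), but with library size as the only scaling it was at 0.03 (adjusted p = 0.503). FOXM1 did not differ from 1 beyond its error, with 1.01 and 1.04 against 0.936 and 0.999 (log2 ratio in sh-NC 0.04, SE 0.04, adjusted p = 0.456, edgeR). The genes with the strongest falls in input RNA were thus found at different heights: TOP2A slightly above 1, CDK1 slightly below it, and MAD2L1 and CDC25B far below it, with log2 ratios of -0.71 and -0.79 in sh-NC.

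Genes with a high ratio tended to have more exonic sequence. Over the 45 genes the Spearman correlation of the log2 ratio in sh-NC was 0.395 with merged exon length, 0.456 with the number of merged exons, 0.203 with the length of the longest exon and 0.132 with the input RPKM. Over all 22953 genes tested it was 0.122, 0.021, 0.179 and -0.073. In the 31 genes with no exon overlap the values were 0.458, 0.426, 0.330 and 0.030. These are descriptions across genes, which share libraries and are not independent replicates. CENPE has 49 merged exons and 9444 exonic bases, CENPF 11690 bases and MKI67 12807 bases. CDC20 has 2038 bases and UBE2C, the shortest of the group, 1286. Other genes went against the trend. The long ESPL1 (8890 bases) and BUB3 (8300 bases) had log2 ratios of -0.34 and -0.72 in sh-NC. The short SPC25 (1841 bases) and CDCA8 (2469 bases) had 0.50 and 0.51. The counts are per whole gene, so the position of m6A within these transcripts was not analysed here, and neither was the share of m6A consensus motifs in their exons.

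The third comparison asked whether IP over input itself changed with the knockdown, beyond the change in input RNA. At an adjusted p under 0.05 in edgeR, 0 of the 45 genes were higher and 0 lower, and the smallest adjusted p among them was 0.604. Over all 22953 genes tested 0.0% were higher and 0.00436%, 1 gene, lower. At an unadjusted p under 0.05, 3 of the 45 were higher and 1 lower, where 3.03% and 3.31% of all genes were. Of the 45 log2 changes 37 were under 0.1 in either direction, with a median of 0.02, and the standard errors ran from 0.05 (MKI67) to 0.15 (CDC25C). The median was -0.04 without sh-NC culture 1. The scaling of the libraries sets the average gene at no change, so a fall in m6A shared by all mRNAs would not appear in these values.

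The 4 genes past the unadjusted threshold are named with their values. CDCA8 had IP over input ratios of 1.44 and 1.41 in sh-NC against 1.26 and 1.14 in shMETTL14, a log2 change of -0.25 (SE 0.09). Its adjusted p was 0.604 in edgeR. NUF2 had 1.24 and 1.46 against 1.52 and 1.53, a log2 change of 0.18 (SE 0.07, adjusted p = 0.679, edgeR), and of 0.04 without sh-NC culture 1 and 0.29 without sh-NC culture 2. In CDCA8 and NUF2 the arms did not overlap, although the gap in NUF2 was smaller than the distance between its sh-NC cultures.

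CCNA2 had ratios of 0.776 and 0.830 against 0.926 and 0.888, a log2 change of 0.18 (SE 0.07, adjusted p = 0.666, edgeR), and its arms did not overlap either. Its change was 0.11 without sh-NC culture 1 and 0.22 without sh-NC culture 2. It shares 254 exonic bases with EXOSC9 on the opposite strand, whose counts were 81.7% of its own. CCNB2 had 0.640 and 0.778 against 0.825 and 0.775, so that its arms overlapped, with a log2 change of 0.19 (SE 0.08, adjusted p = 0.72, edgeR). Its change was 0.02 without sh-NC culture 1 and 0.32 without sh-NC culture 2. Without sh-NC culture 1, INCENP passed the adjusted threshold with a log2 change of -0.21 (adjusted p = 0.0215), against -0.06 with all cultures. The genes whose input RNA fell most showed no change of the ratio past the threshold: it was -0.01 for TOP2A (SE 0.05), -0.04 for CDK1 (SE 0.07), 0.08 for MAD2L1 (SE 0.09) and -0.09 for CDC25B (SE 0.07) on the log2 scale. For CCNB1, MKI67 and FOXM1 it was -0.07 (SE 0.07), -0.01 (SE 0.05) and -0.09 (SE 0.06).

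**Figure D4:**
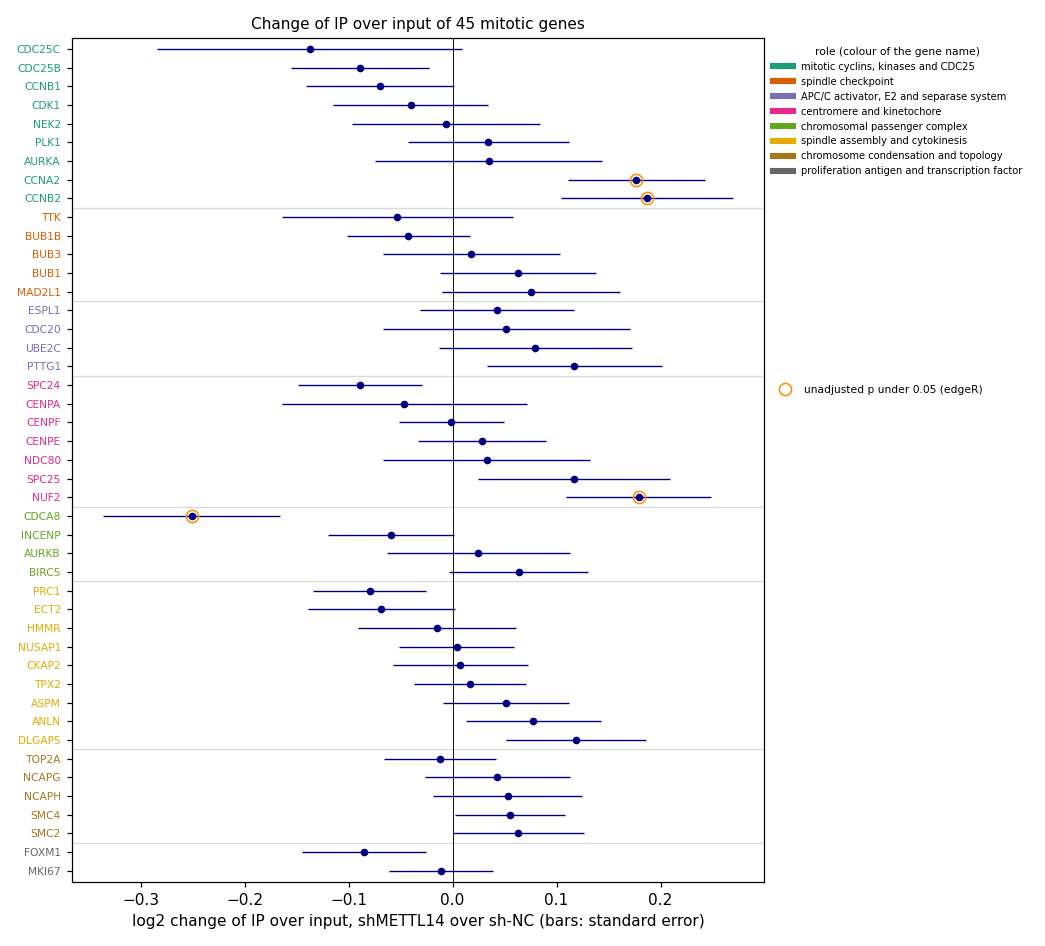
Log2 change of IP over input, shMETTL14 over sh-NC, for the 45 genes, with bars of 1 standard error on either side and rows grouped by role; rings mark an unadjusted p under 0.05 in edgeR. Most points lie within 0.1 of 0, and the 4 ringed genes are CDCA8 on the left and CCNA2, CCNB2 and NUF2 on the right.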

How the data were processed

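MeRIP-seq libraries of SK-N-BE(2) cells were grouped by the arm, culture number and library kind in their titles. The authors deposited raw read counts per gene, 1 column per library. According to the submitters' processing notes, reads were trimmed with Trimmomatic 0.36 and placed on GRCh38. Aligner, counting program, strand setting and handling of molecular identifiers are not given in the sources used here. Exons of 14 of the 45 genes overlap another gene. A marker gene of the cell type check is not reported here.

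The deposited counts were tested in R 4.3.3 with edgeR 4.0.16: filterByExpr, TMM factors, estimateDisp, glmQLFit and glmQLFTest, with Benjamini-Hochberg adjustment over all genes tested and a threshold of 0.05. The input comparison used the 4 input libraries. IP over input per arm, and its change, came from 1 model of all 8 libraries with 4 group means. Each standard error was taken as |log2 change| over the root of F. CPM used the TMM factors of the 8 libraries, and RPKM is CPM per kilobase of merged exons. The fits were tested on simulated data. With 2 cultures per arm an exact two-sided permutation test of 1 value cannot go below p = 0.333.

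Members and lists were chosen with earlier results of these data known. The genes given in full were METTL14, then CDK1, CCNB1, MKI67, FOXM1 and TOP2A for their roles, the 4 largest falls and rises in input RNA past the threshold, the 4 highest and 4 lowest IP over input ratios in sh-NC, the members with an unadjusted p under 0.05 for its change, and the largest fall and rise of each further list. ANLN, NUF2, INCENP, ZWILCH, TH and the remaining members were described after their values were seen.

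Replicate libraries differed by more than sampling noise in every group (mean chi-square per gene from 2.46 to 4.82). IP and input fragments were split from the RNA of 1 culture, which pairs them, and their deviations had correlations of 0.01 (sh-NC) and 0.00 (shMETTL14) over 22953 genes. Settings also tried were RLE factors, DESeq2 1.42.0, scaling on library size alone, other filters, genes with no exon overlap, a replicate block, all 8 libraries for the input comparison, an unadjusted threshold and leaving out each culture. Figures were drawn with matplotlib 3.10.9.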

Additional observations from a re-analysis of the deposited data

How the results depend on the processing

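Outside the values listed here, the counts and medians of the 45 genes stayed within 1.5 times or within the spread between cultures, and 568 values of named genes kept their direction and side of the threshold, while 37 lost it, 1 gained it and 6 changed sign. The number of genes higher in the inputs, 1, was 2 with library size only and 2 with at least 10 counts in every library, 0 among the 31 genes with no exon overlap, and between 0 and 1 when a culture was left out. The number lower, 17, was 9 with no filter, 11 with no exon overlap, and from 7 (without shMETTL14 culture 2) to 20 (without sh-NC culture 2). With no exon overlap 15 genes had a higher IP share in sh-NC and 15 in shMETTL14, and the median log2 ratios were 0.0256 and 0.0861. The fewer genes tested lower these counts, and the shares over all genes with no exon overlap are not given here. With library size only the medians were 0.136 and 0.0925, where the median of all genes moved to -0.14 and -0.13. For the change of IP over input, 3 genes were higher and 1 lower at an unadjusted p, and the number lower was between 0 and 1 when a culture was left out. Leaving out a culture left 1 sample in an arm, which was assumed to vary like the other groups.

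Changes of sign occurred where the value was near 0. FOXM1's IP over input in sh-NC was -0.0911 with library size only. When a culture was left out, FOXM1's ratio in shMETTL14 ran from -0.0914 to 0.0019, and the changes of IP over input from -0.159 to 0.0118 for CCNB1, from -0.122 to 0.0839 for MKI67 and from -0.044 to 0.0172 for TOP2A. The cause was not tested.

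With a replicate block on the culture number, 18 of the 45 genes were lower in the inputs, with NEK2 added (adjusted p = 0.0282, edgeR). Over all genes tested 12.8% were lower, and the median input change of the 45 genes was -0.09. For IP over input the block was on each culture, which pairs its IP with its input. There 17 genes had a lower IP share in sh-NC, with BUB1 lost (adjusted p = 0.0567, edgeR). Without the block the number was 18, where 29.8% of all genes had a lower share. Input libraries with the same number in both arms did not deviate together (correlation -0.01 over 22953 genes). At this depth the standard errors of the input changes ran from 0.03 to 0.10 on the log2 scale, beside a median change of -0.09 (-0.05 without sh-NC culture 1).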
